A study of Homo sapiens with 9 samples.

Results

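Nonsense-mediated decay (NMD) factors are the proteins that recognise and remove mRNAs whose translation stops too early. The 9 genes UPF1, UPF2, UPF3A, UPF3B, SMG1, SMG8, SMG9, SMG5 and SMG6 were taken by name from the 60648 gene lines of the count table, through their Ensembl gene IDs without the version number. All 9 passed the expression filter and were among the 19473 genes tested. In an inducible human cell culture model, the mRNAs of UPF3A, SMG9, SMG5 and SMG6 were higher in both induced lines than in parental cells. These lines carry a construct for a circular SMN RNA or for a linear RNA of the same exons. UPF3B was lower in the line with the linear construct and was not called in the line with the circular construct. UPF1, UPF2 and SMG8 were not called in any comparison.

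RNA was sequenced from 3 HEK293-derived lines, a human embryonic kidney cell line background, with 3 libraries each. TC4-2A cells carry an inducible construct for a circular RNA that joins exons 2A, 2B, 3 and 4 of SMN. TL4-2A cells carry a construct for a linear RNA of these exons. The paper also found the linear RNA, as precursor of the circle, in cells of the circular line. It further describes a minor exon-skipped linear transcript, slightly higher in the circular than in the linear line. A difference between the induced lines is therefore not purely circle against linear RNA. The control is T-REx, the parental line, and every line, the control included, received doxycycline (Dox) for 96 h. The sources used here do not say if a stable line is 1 clone or a pool, nor if its libraries are separate cultures. The p-values therefore describe spread between libraries that may be technical, and effects of the RNA and of the line itself cannot be told apart.

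The libraries held between 16561680 and 21491977 counts, with the TL4-2A libraries at 16561680 to 18873247, and each NMD factor had between 666 and 8019 counts in a library. Levels are given as CPM, read counts relative to the library total, scaled by TMM, the trimmed mean normalisation of edgeR, and the scaling factors ranged from 0.9906 to 1.0141. SMN1, to which reads of the induced exons can be assigned, rose from 38.4 CPM in T-REx to 74.8 CPM in TC4-2A cells and to 42.7 CPM in TL4-2A cells (log2 fold changes 0.96 and 0.15, adjusted p = 2.80e-18 and 0.0164 by edgeR). Of 5 markers of HEK293 cells, the neurofilament gene NEFL had means of 217 CPM (T-REx), 121 CPM (TC4-2A) and 132 CPM (TL4-2A), and VIM of 566, 460 and 504 CPM. The other markers were low in every library, PAX2 at 6.42 to 9.44, LHX1 at 2.35 to 5.36 and NEFM at 1.29 to 2.92 CPM. The 10 markers of leukocytes, erythroid cells, fibroblasts and hepatocytes were each under 1 CPM in every library, with sums from 0.321 to 0.787 CPM.

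UPF1 is the RNA helicase at the centre of NMD, and it gathers on mRNAs where a ribosome stops far from the normal end of a message. UPF2 and the paralogs UPF3A and UPF3B link UPF1 to exon junction complexes, the protein marks that splicing leaves on mRNA. The kinase SMG1, held in a complex with SMG8 and SMG9, phosphorylates UPF1, and phosphorylated UPF1 is bound by SMG5, which recruits general decay enzymes, and by SMG6, which cuts the mRNA itself. Several mRNAs of NMD factors are known to be targets of NMD themselves.

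Promoter sequences of 8 of the 9 genes were found in RefSeq (build GRCh38.p14). The 4 genes that were higher in both lines and UPF3B, which differed between the lines, are shown so that their promoters can be read directly. Each window holds the bases before the annotated start, up to 250, read 5′ to 3′ on the gene's own strand, and capitals mark the motif TCTCGCGA on either strand. The windows are chr13:114281351-114281600 on the plus strand for UPF3A, chrX:119852999-119853213 on the minus strand for UPF3B, chr19:43754963-43755212 on the minus strand for SMG9, chr1:156282826-156283075 on the minus strand for SMG5 and chr17:2303786-2304035 on the minus strand for SMG6.
UPF3A: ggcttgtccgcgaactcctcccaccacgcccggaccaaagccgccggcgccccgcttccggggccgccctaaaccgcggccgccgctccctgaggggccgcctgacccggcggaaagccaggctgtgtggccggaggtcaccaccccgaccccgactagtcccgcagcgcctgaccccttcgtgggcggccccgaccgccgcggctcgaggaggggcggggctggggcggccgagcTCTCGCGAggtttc
UPF3B: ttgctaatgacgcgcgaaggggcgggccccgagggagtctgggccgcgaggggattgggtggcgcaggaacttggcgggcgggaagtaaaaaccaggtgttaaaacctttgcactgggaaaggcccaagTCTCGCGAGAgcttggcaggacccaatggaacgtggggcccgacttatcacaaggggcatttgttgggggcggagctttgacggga
SMG9: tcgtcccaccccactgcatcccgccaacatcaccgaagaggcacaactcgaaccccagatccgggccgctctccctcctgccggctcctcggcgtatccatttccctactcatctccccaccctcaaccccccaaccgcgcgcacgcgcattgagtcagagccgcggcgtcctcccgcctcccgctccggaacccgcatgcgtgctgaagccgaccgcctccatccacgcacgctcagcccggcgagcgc
SMG5: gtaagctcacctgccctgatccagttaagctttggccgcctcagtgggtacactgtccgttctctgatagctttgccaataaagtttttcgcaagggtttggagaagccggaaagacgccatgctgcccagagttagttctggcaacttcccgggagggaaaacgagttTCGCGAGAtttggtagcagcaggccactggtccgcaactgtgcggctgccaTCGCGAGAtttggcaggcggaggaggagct
SMG6: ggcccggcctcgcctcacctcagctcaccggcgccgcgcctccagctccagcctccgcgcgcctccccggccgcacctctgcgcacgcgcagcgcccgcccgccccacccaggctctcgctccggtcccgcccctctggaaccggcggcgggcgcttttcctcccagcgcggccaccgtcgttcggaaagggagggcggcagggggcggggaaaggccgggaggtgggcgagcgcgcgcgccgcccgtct

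TCTCGCGA, the core of an element known from CpG-rich promoters, was searched for after these sequences had been read. UPF3A held 1 match, with its first base at -14 from the start. In UPF3B 2 matches on opposite strands overlapped, with first bases at -86 and -84. SMG5 held 2 separate matches, at -81 and -30. Thus 3 of the 8 NMD promoters held the motif, and 360 of 35116 RefSeq promoters (1.03%) did, in windows of up to 250 bases. Because the motif was picked from these same sequences, the shares cannot test if it is enriched, and no conclusion is drawn. SMG9 and SMG6 had no match, and a link of the motif to the changes in level was not tested. GGGCGG, the GC box, was in 6 of the 8 NMD promoters and in 42.6% of all promoters, CCAAT in 4 of 8 and in 32%, and TATAAA in 0 of 8 and in 10.7%, counting either strand.

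Per kilobase of annotated exons, UPF3B and SMG5 had the highest levels of the 9 genes in each line and SMG6 the lowest. In T-REx cells the levels per kilobase of exons were 32.2 ± 0.889 CPM for UPF3B and 26.2 ± 0.748 CPM for SMG5 (SD, n = 3), and their libraries did not overlap. UPF2 followed at 17.5 ± 0.253, SMG1 at 14.9 ± 0.575 and UPF1 at 13.4 ± 0.145 CPM per kilobase. SMG8 at 11 ± 0.766, UPF3A at 10.4 ± 0.379 and SMG9 at 10.3 ± 0.259 CPM per kilobase overlapped in their libraries, so their order is not resolved, and SMG6 was at 6.90 ± 0.261. The leading pair changed places in TL4-2A cells, where SMG5 was at 32.4 ± 0.474 and UPF3B at 27.5 ± 2.59 CPM per kilobase. The order below this pair depends on the length used. With the longest annotated transcript as the length, UPF3A moved from 7th to 3rd place in T-REx cells, at 24.6 ± 0.899 CPM per kilobase, and SMG8 to last place, at 11.9 ± 0.825.

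**Figure D1:**
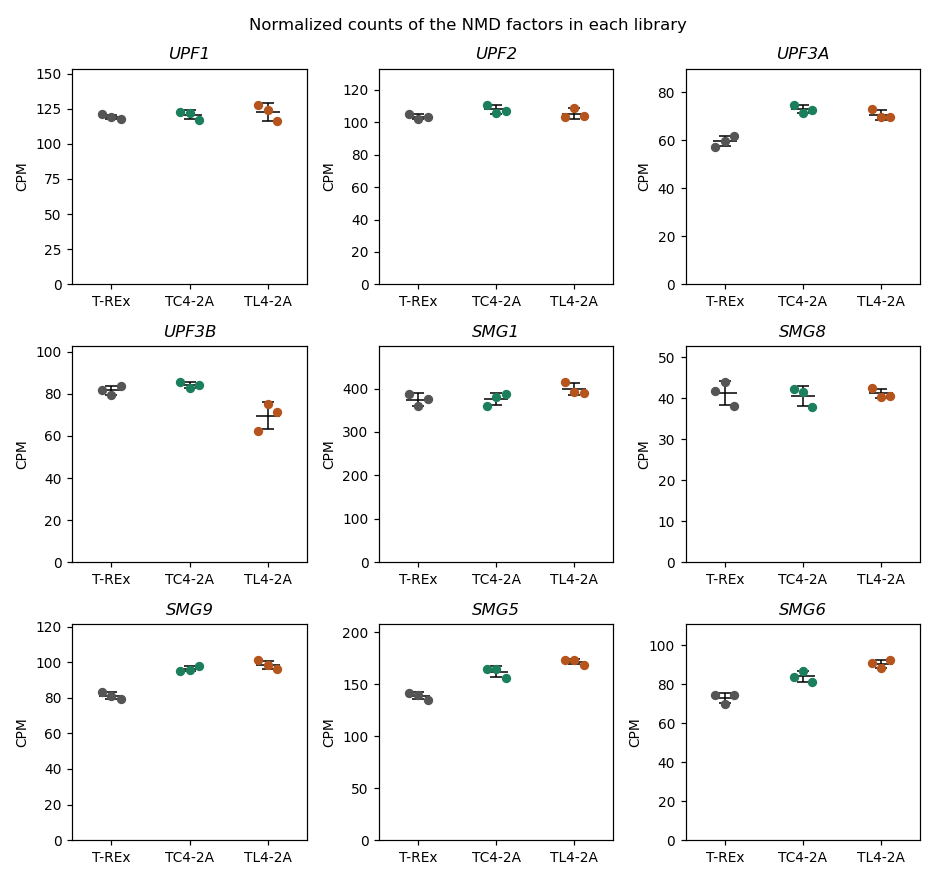
Level of each NMD factor in every library, in CPM on axes that start at 0, with points for the 3 libraries of each line and black marks for the mean and SD. The libraries of both induced lines lie above those of T-REx for UPF3A, SMG9, SMG5 and SMG6, and the TL4-2A libraries lie below the others for UPF3B.

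The design compares each induced line with the parental line and then the circular with the linear construct. Of the 9 NMD factors, 4 were higher and 0 lower in TC4-2A than in T-REx cells at an adjusted p under 0.05 (edgeR quasi-likelihood test, Benjamini-Hochberg over all genes). Among all genes tested 14.2% were higher and 14.6% lower in that comparison. In TL4-2A against T-REx cells 5 were higher and 1 lower, with 21.9% of all genes higher and 22.5% lower. In TC4-2A against TL4-2A cells 1 was higher and 2 were lower, with 17.6% and 17.8% of all genes. The median log2 fold change of the 9 genes was 0.07, 0.09 and -0.02 in these comparisons, and the median over all genes tested was 0.00 in each. Both comparisons with T-REx use the same 3 control libraries, so that their results are not independent of each other. The share of all genes higher in both lines was not counted. The paper reports that many genes changed in the circular line also changed in the linear line. The 4 joint calls are therefore not read as particular to the NMD factors. All these levels are relative to the RNA of a whole culture, in which a change in some cells and a smaller change in every cell cannot be told apart.

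**Figure D2:**
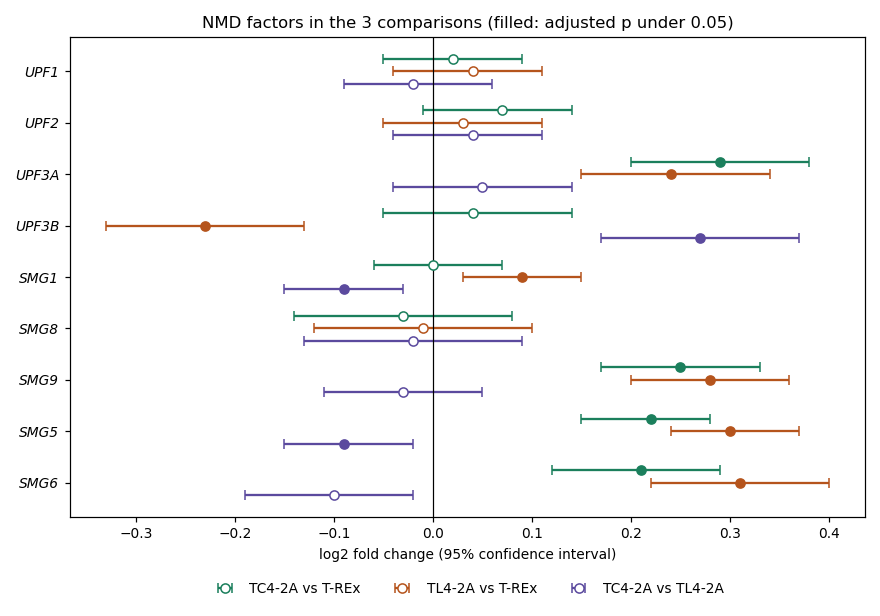
Log2 fold change of each NMD factor in the 3 comparisons, with 95% confidence intervals of the edgeR fit, where filled points have an adjusted p under 0.05. The 4 genes called in both induced lines lie between 0.21 and 0.31, and UPF3B is the one gene called below 0 against T-REx.

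UPF1, the helicase (ENSG00000005007.13, chromosome 19, 18831959 to 18868230, plus strand), stood at 121, 119 and 118 CPM in the T-REx libraries, at 123, 122 and 117 CPM in TC4-2A and at 128, 124 and 116 CPM in TL4-2A. The 3 lines overlapped. The log2 fold change was 0.02 in TC4-2A (95% interval -0.05 to 0.09, adjusted p = 0.748 by edgeR) and 0.04 in TL4-2A cells (-0.04 to 0.11, adjusted p = 0.436). Between TC4-2A and TL4-2A it was -0.02 (-0.09 to 0.06).

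UPF2, the adaptor between UPF1 and UPF3 proteins (ENSG00000151461.20, chromosome 10, 11920022 to 12043170, minus strand), was at 105, 102 and 103 CPM in T-REx, at 111, 106 and 107 CPM in TC4-2A and at 103, 109 and 104 CPM in TL4-2A libraries. Every TC4-2A library was above every T-REx library, by a margin that did not pass the test (log2 fold change 0.07, interval -0.01 to 0.14, adjusted p = 0.185 by edgeR). TL4-2A libraries overlapped with both other lines, with 0.03 (-0.05 to 0.11) against T-REx.

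UPF3A (ENSG00000169062.15, chromosome 13, 114281601 to 114305817, plus strand) is the paralog of UPF3B that is known as the weaker activator of NMD. Its level was 57.4, 59.9 and 61.8 CPM in the T-REx libraries, 74.9, 71.5 and 72.6 CPM in TC4-2A and 73.0, 69.5 and 69.5 CPM in TL4-2A. All 6 libraries of the induced lines were above the 3 of T-REx, and the induced lines overlapped. UPF3A rose by 0.29 ± 0.04 (SE) on the log2 scale in TC4-2A cells, or 1.22-fold (adjusted p = 2.96e-06 by edgeR), and by 0.24 ± 0.05 in TL4-2A cells, or 1.18-fold (adjusted p = 3.45e-05). The difference between the induced lines was 0.05 (-0.04 to 0.14, adjusted p = 0.447).

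UPF3B (ENSG00000125351.13, chromosome X, 119834022 to 119852998, minus strand) is the main UPF3 protein of most cells. Its libraries were at 81.8, 79.3 and 83.8 CPM in T-REx, at 85.4, 82.9 and 84.1 CPM in TC4-2A and at 62.4, 75.2 and 71.3 CPM in TL4-2A. The TL4-2A libraries were all below the other 6, and their coefficient of variation was 9.43%, the widest of any NMD factor in any line, where the median was 2.87%. UPF3B fell in TL4-2A cells by 0.23 ± 0.05 on the log2 scale (adjusted p = 0.000238 by edgeR). Against T-REx its change in TC4-2A cells was 0.04 (-0.05 to 0.14, adjusted p = 0.534). The direct test between the lines put it 0.27 ± 0.05 higher in TC4-2A than in TL4-2A cells, or 1.21-fold (adjusted p = 2.32e-05).

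The UPF3 pair can be compared within a library, without any scaling, as the share of UPF3A in the counts of both genes. In T-REx this share was 41.3%, 43.0% and 42.4% by library, in TC4-2A libraries 46.7%, 46.3% and 46.3%, and in TL4-2A libraries 53.9%, 48.0% and 49.4%. No line overlapped with another. UPF3A therefore had fewer counts than UPF3B in 8 of the 9 libraries, the exception being replicate 1 of TL4-2A. The mean share was 42.2% ± 0.908 for T-REx, 46.5% ± 0.241 for TC4-2A and 50.4% ± 3.09 for TL4-2A (SD, n = 3). It was thus 4.21 percentage points higher in TC4-2A and 8.19 points higher in TL4-2A than in T-REx, and each of the 3 differences had p = 0.1 in a 2-sided exact permutation test, the smallest p that 3 against 3 libraries can give. Between TC4-2A and TL4-2A the share differed by -3.98 points, and by -2.25 points without replicate 1 of TL4-2A. Shares of counts are not shares of molecules, since UPF3A has 5755 and UPF3B 2531 bases of annotated exons.

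**Figure D3:**
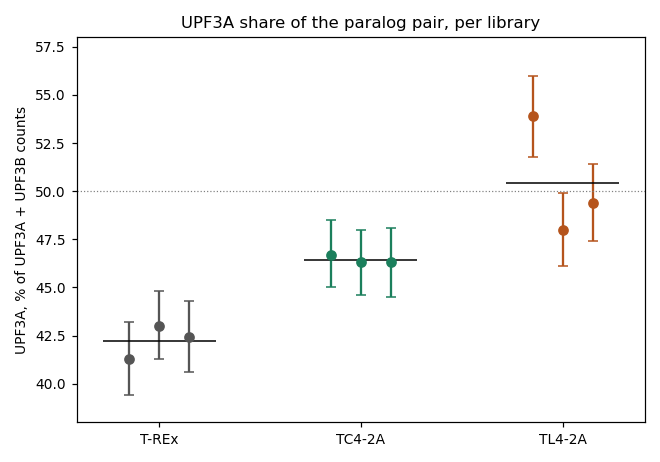
Share of UPF3A in the counts of UPF3A and UPF3B, in percent, on an axis from 38 to 58, for each library with its 95% Wilson interval, which covers counting error only, and the mean of each line as a black bar. The share rises from 42.2% (T-REx) through 46.5% (TC4-2A) to 50.4% (TL4-2A), and the dotted line marks 50%.

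SMG1 (ENSG00000157106.17, chromosome 16, 18804860 to 18926408, minus strand), the kinase of UPF1, was at 388, 359 and 377 CPM in T-REx, 360, 381 and 387 CPM in TC4-2A and 414, 393 and 390 CPM in TL4-2A libraries. TL4-2A libraries were all above the others. SMG1 rose by 0.09 ± 0.03 on the log2 scale in TL4-2A cells, or 1.07-fold (adjusted p = 0.0151 by edgeR), a call that was lost without replicate 2 of T-REx (0.06, adjusted p = 0.154) or without replicate 1 of TL4-2A (0.06, adjusted p = 0.121). In TC4-2A cells the change was 0.00 (-0.06 to 0.07, adjusted p = 0.953). TC4-2A was lower than TL4-2A by -0.09 ± 0.03 (adjusted p = 0.0236), a difference that missed the threshold with DESeq2 (adjusted p = 0.0522) and without an expression filter (adjusted p = 0.0572). It was also lost without replicate 1 of TC4-2A (-0.06, adjusted p = 0.19 by edgeR) or replicate 1 of TL4-2A (-0.06, adjusted p = 0.169).

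SMG1 has 7 measured pseudogenes, SMG1P1 to SMG1P7, that copy parts of it. In the longest SMG1 transcript 18.1% of all 50-base windows also occur in other genes, 16.9% in these pseudogenes, so that reads can be split between them. The pseudogenes held 21.6% to 21.8% of the counts of SMG1 and its pseudogenes in T-REx, 22.5% to 23.4% in TL4-2A and 23.6% to 23.9% in TC4-2A libraries. When SMG1 and the 7 pseudogenes were summed, an alternative chosen after seeing the data, the log2 fold change was 0.04 in TC4-2A (adjusted p = 0.343 by edgeR) and 0.11 in TL4-2A cells (adjusted p = 0.00272), and the difference between the lines, -0.07, was not called (adjusted p = 0.0655).

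Taken singly, 2 of the 7 pseudogenes were called higher for TC4-2A, and 3 higher and 1 lower for TL4-2A. SMG1P1 rose from 33.9 CPM to 39.8 and 43.6 CPM, with log2 fold changes of 0.23 and 0.36. SMG1P7 rose by 0.32 in TC4-2A cells and fell by 0.16 in TL4-2A cells. SMG1P3 at 0.24 and SMG1P6 at 0.36 were called in TL4-2A cells. With DESeq2 the TL4-2A calls of SMG1P6 and SMG1P7 were lost (adjusted p = 0.107 and 0.133). Both were also lost in edgeR without some single libraries, SMG1P6 without replicate 2 or 3 of T-REx or replicate 3 of TL4-2A (adjusted p up to 0.169) and SMG1P7 without replicate 1 or 3 of T-REx or replicate 1 or 2 of TL4-2A (up to 0.118). SMG1P2, SMG1P4 and SMG1P5 were called in neither line against T-REx. These values are uncertain because the handling of reads with several matches is not given in the sources used here.

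SMG8 and SMG9 are both partners of the SMG1 kinase. SMG8 (ENSG00000167447.13, chromosome 17, 59209400 to 59215239, plus strand) was at 41.8, 43.8 and 38.1 CPM in T-REx, 42.2, 41.4 and 37.7 CPM in TC4-2A and 42.5, 40.3 and 40.6 CPM in TL4-2A libraries. All 3 lines overlapped, with log2 fold changes of -0.03 (-0.14 to 0.08, adjusted p = 0.734 by edgeR) and -0.01 (-0.12 to 0.10, adjusted p = 0.946). Of its windows of 50 bases 11% also occur in an overlapping gene, ENSG00000265303, which had 0 counts in all 9 libraries.

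SMG9 (ENSG00000105771.14, chromosome 19, 43727983 to 43754962, minus strand) was at 83.4, 80.9 and 79.3 CPM in T-REx, 95.3, 95.7 and 97.9 CPM in TC4-2A and 101, 98.2 and 96.2 CPM in TL4-2A libraries. Each library of an induced line was above each T-REx library. SMG9 rose by 0.25 ± 0.04 on the log2 scale in TC4-2A (1.19-fold, adjusted p = 4.59e-06 by edgeR) and by 0.28 ± 0.04 in TL4-2A cells (1.21-fold, adjusted p = 3.60e-07). The difference between the lines was -0.03 (-0.11 to 0.05, adjusted p = 0.593). Whether SMG8 and SMG9 differ in their change was not tested.

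SMG5 (ENSG00000198952.8, chromosome 1, 156249224 to 156282825, minus strand), the adaptor to general mRNA decay, was at 142, 140 and 135 CPM in T-REx, 165, 165 and 156 CPM in TC4-2A and 173, 173 and 169 CPM in TL4-2A libraries. No line overlapped with another, and the order was T-REx, TC4-2A and then TL4-2A. SMG5 rose by 0.22 ± 0.03 in TC4-2A (1.16-fold, adjusted p = 1.19e-06 by edgeR) and by 0.30 ± 0.03 in TL4-2A cells (1.24-fold, adjusted p = 6.97e-10). TC4-2A was lower than TL4-2A by -0.09 ± 0.03 on the log2 scale (adjusted p = 0.0352), a call that DESeq2 did not make (adjusted p = 0.0824) and that was lost without an expression filter (adjusted p = 0.176) and with only the lines compared (adjusted p = 0.0585). It was also lost without replicate 3 of TC4-2A (adjusted p = 0.216 by edgeR), replicate 1 or 2 of TL4-2A (0.108 and 0.114) or replicate 2 of T-REx (0.0509).

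SMG6 (ENSG00000070366.14, chromosome 17, 2059839 to 2303785, minus strand), the endonuclease, was at 74.6, 69.7 and 74.4 CPM in T-REx, 83.8, 87.0 and 81.3 CPM in TC4-2A and 91.0, 88.1 and 92.2 CPM in TL4-2A libraries. As for SMG5, no line overlapped with another. SMG6 rose by 0.21 ± 0.04 in TC4-2A (1.15-fold, adjusted p = 0.000209 by edgeR) and by 0.31 ± 0.04 in TL4-2A cells (1.24-fold, adjusted p = 1.66e-07). Between the induced lines the difference was -0.10 (-0.19 to -0.02), at an adjusted p of 0.0522 that stood at the threshold.

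The SMG6 locus holds 14 overlapping annotated genes, of which 5 were tested. SRR, the serine racemase gene on the opposite strand, was at 14.0 CPM in T-REx, 13.5 CPM in TC4-2A and 8.73 CPM in TL4-2A cells, and it fell by 0.68 in TL4-2A cells (adjusted p = 6.14e-08 by edgeR) while SMG6 rose. SMG6-IT1, an unprocessed transcript on the same strand within SMG6, was at 0.132 CPM in T-REx, 0.531 CPM in TC4-2A and 0.577 CPM in TL4-2A cells, with log2 fold changes of 1.95 and 2.02 (adjusted p = 0.00617 and 0.00331). HIC1, MCUR1P1 and ENSG00000236457 were not called. The strand setting of the counting is not given in the sources used here, so reads of SMG6 and of a gene that overlaps it may not have been told apart.

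Genes next to the NMD factors on their chromosomes were read in the same fit. For each NMD factor the 5 nearest tested genes on each side were taken, where the chromosome held them. UPF3A, close to the end of chromosome 13, had 6 such neighbours, and 4 of them were higher in each induced line, with 0 lower. Their median log2 fold change was 0.41 for TC4-2A and 0.32 for TL4-2A, beside 0.29 and 0.24 for UPF3A. CHAMP1 (0.38 and 0.45), CDC16 (0.28 and 0.34) and RASA3 (0.44 and 0.30) were higher in both lines. GAS6 was higher in TC4-2A cells (0.24) and was not called in TL4-2A cells (0.06).

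UPF3B had 10 neighbours, of which 6 were lower and 0 higher in TL4-2A cells, with a median of -0.33 beside -0.23 for UPF3B. NKAP (-0.35), RPL39 (-0.32) and SEPTIN6 (-0.29) were among those that fell. TC4-2A had 3 of the 10 lower and 1 higher, with a median of -0.15 beside 0.04 for UPF3B. Directly compared, 5 of the 10 were higher and 0 lower in TC4-2A than in TL4-2A cells, with a median of 0.18. The genes named around UPF3A and UPF3B were chosen after their values were seen, and the part of the chromosome region in the values of UPF3A and UPF3B was not tested.

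Around SMG5 the neighbours had a median of -0.02 in either line, beside 0.22 and 0.30 for SMG5, and around SMG6 they had 0.08 and 0.02, beside 0.21 and 0.31. Among the SMG6 neighbours HIC1, SRR, MCUR1P1, ENSG00000236457 and SMG6-IT1 overlap SMG6 itself. The last 3 of these had low means over all libraries, 0.867, 0.405 and 0.413 CPM. The neighbours of SMG9 had a median of -0.04 (TC4-2A) and of 0.23 (TL4-2A), and in TL4-2A cells 5 of 10 were higher and 1 lower. For UPF1 the median was 0.03 and 0.17, while UPF1 itself stood at 0.02 and 0.04. The medians for UPF2, SMG1 and SMG8 lay between -0.08 and 0.05 in both comparisons.

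**Figure D4:**
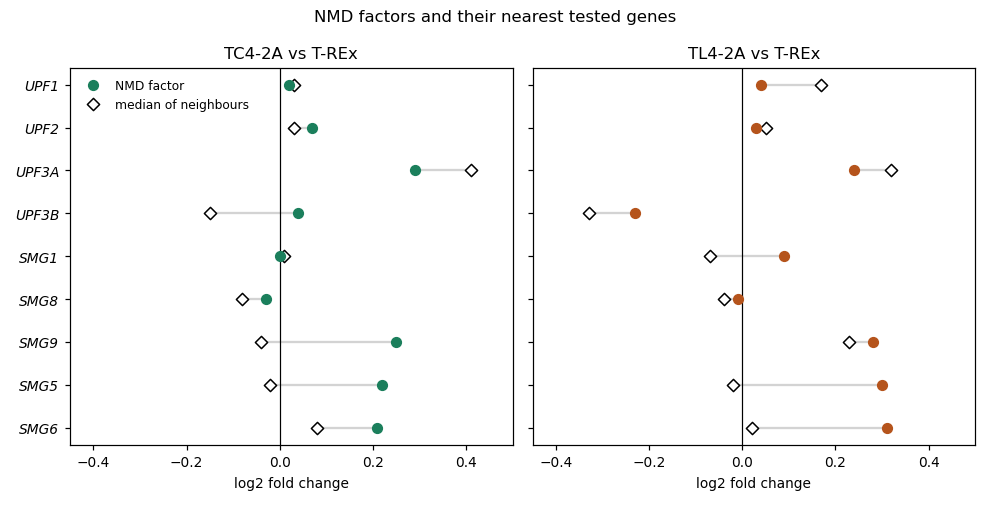
Log2 fold change against T-REx of each NMD factor (filled points) and the median of its nearest tested genes (open diamonds), in TC4-2A on the left and TL4-2A on the right. Point and diamond lie on the same side of 0 for UPF3A in both lines (medians 0.41 and 0.32) and for UPF3B in TL4-2A cells (-0.33), and apart for SMG5 (-0.02 in both).

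Of all protein-coding genes outside the NMD factors, 13659 in number, those most like SMG5 over the 9 libraries were ANKLE2 and RBM10, each with Pearson r = 0.99 of log2 CPM, and PAK4, with r = 0.989. The 9 points share their 3 lines, and these correlations are a description only. ANKLE2 had log2 fold changes of 0.14 and 0.22 in TC4-2A and TL4-2A cells, RBM10, an RNA-binding splicing regulator, 0.20 and 0.28, and PAK4, a protein kinase, 0.19 and 0.30.

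Genes that work with the NMD factors were read from 7 lists holding 62 tested genes. In TC4-2A cells 17 of the 62 were higher and 8 lower than in T-REx, where 14.2% and 14.6% of all genes were. In TL4-2A cells 19 were higher and 17 lower, where 21.9% and 22.5% were. TC4-2A against TL4-2A gave 22 higher and 11 lower, where 17.6% and 17.8% were.

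Of the 6 exon junction complex genes, TC4-2A had 5 higher and 0 lower (median log2 fold change 0.17) and TL4-2A had 3 higher and 0 lower (median 0.04). RNPS1, a splicing-linked member, rose from 428 ± 8.07 CPM in T-REx to 487 ± 2.16 CPM in TC4-2A cells (SD, n = 3). Its TL4-2A level was 449 ± 1.31 CPM, a log2 fold change of 0.07 (adjusted p = 0.0358 by edgeR). That call was lost without an expression filter (adjusted p = 0.18), with only the lines compared (0.0505), and without replicate 1 or 3 of T-REx, replicate 2 of TC4-2A or any one TL4-2A library (0.0567 to 0.12). CASC3, which binds the complex in the cytoplasm, rose by 0.17 (TC4-2A) and 0.23 (TL4-2A). RBM8A, a core subunit, rose by 0.18 in TC4-2A cells and stood at -0.01 in TL4-2A cells, and the direct difference of 0.18 was called (adjusted p = 3.56e-05 by edgeR). MAGOHB, which pairs with RBM8A, had the opposite pattern, with 0.05 in TC4-2A, a rise of 0.27 in TL4-2A cells and a difference of -0.22 (adjusted p = 0.000371). The remaining genes of the list, MAGOH and EIF4A3, went with RBM8A, at 0.19 and 0.13 in TC4-2A and -0.07 and 0.02 in TL4-2A cells. Their differences between the lines, 0.26 and 0.11, were called (adjusted p = 0.000137 and 0.0232 by edgeR).

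Of 7 further NMD factors and assembly proteins of the SMG1 complex, TC4-2A had 3 higher and 0 lower and TL4-2A had 4 higher and 1 lower. DHX34, a helicase, rose by 0.14 and 0.32, and the TC4-2A call was lost without replicate 1 of T-REx (adjusted p = 0.0822 by edgeR) or of TC4-2A (adjusted p = 0.0844). MOV10, another helicase, stood at 0.09 in TC4-2A cells and rose by 0.34 in TL4-2A cells. PNRC2, which links UPF1 to decapping, fell by 0.46 in TL4-2A cells, from 92.8 ± 2.24 to 67.5 ± 0.566 CPM. In TC4-2A cells PNRC2 stood at -0.10 (adjusted p = 0.0519 by edgeR). There it was called lower with at least 10 counts in every library, with the replicate block and without replicate 1 of T-REx (0.0329 to 0.0446).

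Translation termination, the step at which NMD begins, was read from 4 genes, of which TC4-2A had 2 higher and TL4-2A 1. ABCE1, which recycles ribosomes after termination, rose from 144 ± 4.63 CPM in T-REx to 219 ± 3.78 CPM in TC4-2A cells, a log2 fold change of 0.61 (adjusted p = 1.30e-17 by edgeR), and was at 141 ± 5.79 CPM in TL4-2A cells. The paper places ABCE1 in a region of chromosome 4 where genes higher in TC4-2A cells were enriched. The part of this region in the rise of ABCE1 was not tested. ETF1, the release factor that reads stop codons, rose by 0.10 in TC4-2A cells and was at 0.00 in TL4-2A cells, and its call was lost without replicate 1 of T-REx (adjusted p = 0.0737 by edgeR) or replicate 2 of TC4-2A (adjusted p = 0.0535). GSPT2, a GTPase that acts with ETF1, rose by 0.27 in TL4-2A cells and stood at 0.17 in TC4-2A cells. Its paralog GSPT1 was called in neither. Without replicate 1 of T-REx or replicate 3 of TL4-2A, GSPT1 was called lower in TL4-2A cells (adjusted p = 0.0465 and 0.0364 by edgeR).

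The last lists of proteins hold enzymes of RNA decay and their cofactors, among them nuclear ones such as EXOSC10. Of 13 genes of decapping, deadenylation and 5′ to 3′ decay, TC4-2A had 1 higher and 2 lower and TL4-2A had 3 higher and 5 lower. EDC3, an enhancer of decapping, rose by 0.21 in each line. CNOT6L, a deadenylase, fell by 0.21 (TC4-2A) and by 0.38 (TL4-2A). EDC4, the decapping scaffold, fell by 0.29 in TL4-2A cells, and CNOT1, the scaffold of the deadenylase complex, rose by 0.18 there.

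Of 8 exosome and Ski complex genes, TC4-2A had 1 higher and 0 lower and TL4-2A had 2 higher and 1 lower. DIS3, an exosome nuclease, rose by 0.20 and 0.40, from 117 ± 0.414 CPM in T-REx to 134 ± 3.72 and 155 ± 3.39 CPM. EXOSC10, a nuclear exosome nuclease, fell by 0.46 in TL4-2A cells, from 162 ± 2.23 to 118 ± 2.32 CPM, and stood at 0.04 in TC4-2A cells. SKIC2, the Ski helicase, rose by 0.22 in TL4-2A cells, and DIS3L was called in neither line against T-REx (0.10 and -0.07).

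Of 17 transcripts known to be limited by NMD, TC4-2A had 3 higher and 6 lower (median log2 fold change -0.04) and TL4-2A had 3 higher and 9 lower (median -0.19). ATF3, which encodes a stress-induced transcription factor, fell from 41.7 ± 1.52 CPM in T-REx to 28.3 ± 0.735 CPM in TC4-2A and 27.6 ± 1.64 CPM in TL4-2A cells. GADD45B, a stress and growth arrest gene, fell by 0.51 and by 0.71. ARC, an immediate early gene, fell from 4.49 ± 0.726 CPM to 2.94 ± 0.172 and 0.898 ± 0.180 CPM, by 0.61 and by 2.32 on the log2 scale. ATF4, the transcription factor of the integrated stress response, rose by 0.21 in TC4-2A cells (adjusted p = 3.83e-07 by edgeR) and stood at -0.06 in TL4-2A cells. It was called lower in TL4-2A cells without replicate 1 of T-REx or replicate 2 of TL4-2A (adjusted p = 0.0169 and 0.0298 by edgeR). The other transcripts called higher were GAS5 (0.10 and 0.17) and SNHG15 (0.16 and 0.15) in both lines and TBL2 in TL4-2A cells (0.19). The others called lower were DDIT3, GADD45A and UPP1 in both lines and SNHG5, SNHG6 and SNHG8 in TL4-2A cells. ATF3, GADD45B, ARC and ATF4 are also regulated by stress or growth signals, and no measurement here gives the decay rate of any transcript.

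**Figure D5:**
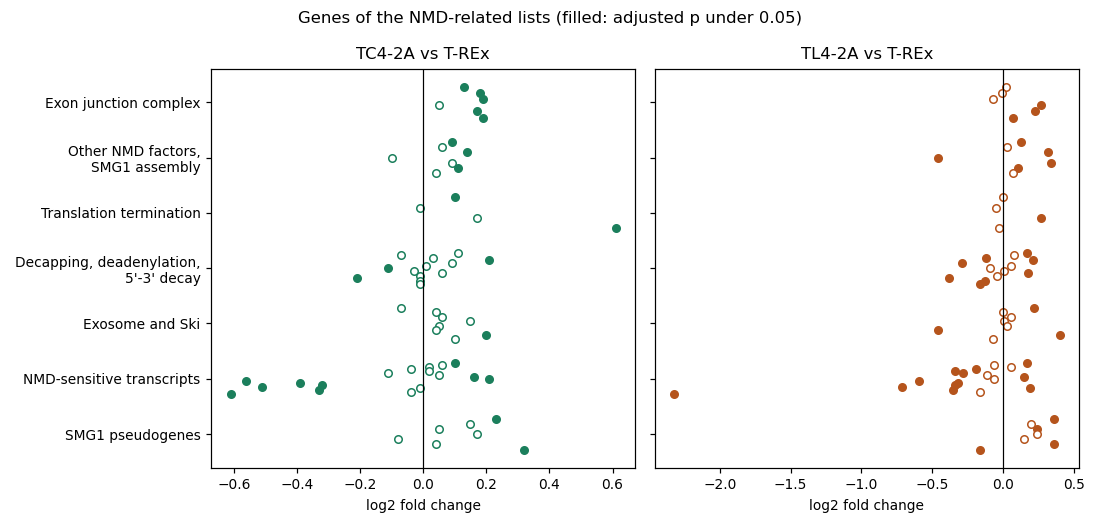
Log2 fold change against T-REx of every tested gene in the 7 lists around NMD, in TC4-2A on the left and TL4-2A on the right, on axes of different range, with filled points for an adjusted p under 0.05. In TC4-2A cells 5 of 6 exon junction complex genes are filled and above 0, where 14.2% of all genes tested were called higher. ARC is the lowest point on both sides, at -0.61 and -2.32.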

How the data were processed

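Total RNA of 9 libraries (3 lines, 3 libraries each) was depleted of ribosomal RNA and sequenced from directional libraries. The authors deposited raw counts per gene, made with HISAT2 on GRCh38 and featureCounts on Gencode v33 genes, as the study's methods and the submitters' processing notes say. The sources used here give no tool versions, strand setting or treatment of reads that match several places. The authors' own DESeq2 comparisons hold log2 fold changes, standard errors and p-values and were not used.

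The counts were used as deposited. Genes were tested with edgeR 4.0.16 (R 4.3.3): filterByExpr over the lines, TMM, a single quasi-likelihood fit with line as its term, 2-sided. A gene was called below an adjusted p of 0.05 (Benjamini-Hochberg, over all 19473 genes tested). Fold changes are on the log2 scale of this model, CPM are scaled by TMM, and ± in the text is the SD of levels or the SE of fold changes. On simulated counts for TC4-2A against T-REx, over 19473 genes, the test recovered 40% of 1.2-fold and 84% of 1.5-fold changes, with 18 false calls among 177. Far fewer genes were changed in the simulation than were called in the data, and they were drawn from low and high levels alike. Its rates are therefore not those of the NMD factors. Symbols, positions and transcripts came from Gencode v44, and promoters from RefSeq. The alternatives were DESeq2 1.42.0, RLE scaling, no filter, at least 10 counts in every library, only the lines compared and a replicate block. Further ones were each library left out in turn, counts per kilobase, transcript length and up to 20 neighbours. Pairs of libraries of a line differed by more than counting error (chi-square per gene 1.79 to 4.32), so no library was counted as a second copy of another. This does not tell separate cultures from separate preparations of one culture.

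The genes named are the 9 NMD factors, the 4 genes of smallest p in each list of more than 5 genes, every gene of a shorter list and of the SMG1 pseudogenes, the 3 genes most like the NMD factor of smallest p, and genes that overlap an NMD factor. An item that this rule takes is not reported here. The NMD factors, lists and tests were chosen with earlier results of these data known. MAGOH, EIF4A3 and the further called transcripts known to be limited by NMD were named in addition, after their values were seen.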

Additional observations from a re-analysis of the deposited data

Results flagged for a closer look

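Of the 9 NMD factors 3, and of the 31 list genes taken by the naming rule 21, were flagged because the direct edgeR test of TC4-2A against TL4-2A cells was past the threshold. In that test 17.6% of all genes were higher and 17.8% lower. The list genes were mostly named for a small p, and of all 62 list genes 22 were higher and 11 lower. The values are log2 fold changes, TC4-2A over TL4-2A. UPF3B was at 0.27 ± 0.05 (SE), SMG1 at -0.09 ± 0.03 and SMG5 at -0.09 ± 0.03. Among exon junction complex genes RNPS1 was at 0.12, RBM8A at 0.18 and MAGOHB at -0.22. Among the further NMD factors PNRC2 was at 0.36, MOV10 at -0.26 and DHX34 at -0.18. The termination genes ABCE1 and ETF1 were at 0.63 and 0.10. Of the decapping and deadenylation genes EDC4 was at 0.38, CNOT6L at 0.17 and CNOT1 at -0.12. Of the exosome and Ski genes EXOSC10 was at 0.50, DIS3L at 0.16, DIS3 at -0.20 and SKIC2 at -0.29. ARC and ATF4 were at 1.72 and 0.26. Among the SMG1 pseudogenes SMG1P1 was at -0.13, SMG1P3 at -0.20, SMG1P5 at -0.23 (adjusted p = 0.0497) and SMG1P7 at 0.48, and the first 3 of these missed the threshold with DESeq2 (adjusted p = 0.15, 0.0604 and 0.159). The part of the inserted RNA and of the line itself in these differences cannot be told apart.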

How the results depend on the processing

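In each comparison 135 refits of the 9 NMD factors were made, and the calls of UPF3A, SMG9, SMG5 and SMG6 against T-REx and of UPF3B in TL4-2A cells were made in every one. Against T-REx the counts of NMD factors called were 4 in TC4-2A cells in all alternatives, and 5 to 6 in TL4-2A cells without 1 library. In TC4-2A against TL4-2A cells the count of 3 fell to 1 with DESeq2, to 1 without an expression filter, and ranged from 1 to 4 without 1 library, with 1 reached without replicate 1 of TL4-2A. UPF3B was the gene called in each of these fits. SMG6 was called there with RLE scaling (-0.11, adjusted p = 0.0491 by edgeR). The replicate numbers do not pair the libraries: deviations from the line means correlated at -0.0295 to 0.0302 for the same number and at -0.0197 to 0.0336 for other numbers. With the replicate block the counts were 4, 6 and 4, the last through SMG6 (adjusted p = 0.0391). The counts of list genes called, 25, 36 and 33, stayed within 1.5-fold in all fits, and were 27, 37 and 30 with the block.

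Signs changed only for values that were not called, and the cause was not tested. Without 1 library, the log2 fold change in TC4-2A against T-REx ranged from -0.03 to 0.03 for SMG1, -0.08 to 0.02 for SMG8, -0.03 to 0.00 for GSPT1, -0.01 to 0.10 for SMG1P3 and -0.06 to 0.11 for SMG1P6. In TL4-2A against T-REx it ranged from -0.06 to 0.04 for SMG8, -0.05 to 0.03 for RBM8A, -0.02 to 0.01 for ETF1, -0.05 to 0.00 for ABCE1 and -0.02 to 0.33 for SMG1P2. In TC4-2A against TL4-2A it ranged from -0.06 to 0.01 for UPF1, -0.05 to 0.02 for SMG8, -0.03 to 0.02 for EDC3, -0.02 to 0.06 for ATF3, -0.18 to 0.17 for SMG1P2 and -0.17 to 0.03 for SMG1P4. ETF1 in TL4-2A cells was at 0.00 with DESeq2, RLE scaling and only the lines compared, and EDC3 between the lines at 0.01 without a filter and 0.00 with at least 10 counts. With up to 20 neighbours in place of up to 10 the medians around UPF3A were 0.34 and 0.37 and around UPF3B -0.10 and -0.21 against T-REx. UPF3A, close to a chromosome end, had fewer neighbours than this in either setting.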
